A study of Homo sapiens with 6 samples.

Results

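The KRAB zinc finger genes of chromosome 19p12 to 19p13.11 form one of the large zinc finger gene clusters of the human genome. The 36 genes described here were chosen by name and position in that cluster, a choice made with earlier results from these data in view, and 33 of them were among the 19792 genes in the deposited table. ZNF208, ZNF676 and ZNF728 had no entry there, so no level is given for them. The cells were BT-549/tet-WDR5shRNA, a human triple-negative breast cancer (TNBC) line carrying a doxycycline (DOX)-inducible short hairpin RNA against WDR5, a core subunit of the COMPASS histone H3K4 methyltransferases. The 6 cultures carried the same construct, with 3 receiving DMSO as vehicle and 3 receiving 500 ng/ml DOX, and polyadenylated RNA was sequenced from each. No culture of cells without the WDR5 hairpin, or with a control hairpin, was analysed here, and whether the line is a clone or a pool is not given in the sources used here.

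The level used throughout is the authors' mean normalized count of each gene over the 6 libraries, in which vehicle and DOX cultures are averaged together. It carries no spread between cultures, and the other columns of the table are the authors' own comparison of DOX with vehicle, which was not used. The levels below therefore describe which cluster genes BT-549 cells transcribed, and no difference between DOX and vehicle was computed or tested. All statements on groups of genes are descriptions, since genes are not replicates. In bulk RNA, a low level cannot be told apart from a higher level in few of the cells.

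A KRAB zinc finger protein joins an N-terminal KRAB domain to an array of C2H2 zinc fingers, each a short loop held by a zinc ion that contacts DNA. The fingers choose the DNA site, and the KRAB domain binds the corepressor TRIM28 (KAP1), which brings the H3K9 methyltransferase SETDB1 and heterochromatin protein 1. Many of these proteins bind and silence transposable elements, among them ZNF91, known for repressing SVA elements, and ZNF93, known for repressing young LINE-1 elements. The genes arose by tandem duplication, so that cluster members resemble one another in fingers, exons and promoters.

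The cluster spanned 4.46 Mb of chromosome 19 (GRCh38, chr19:19668796-24129968), from ZNF101 at its start to ZNF254 at its end, with 19 genes on the plus strand and 17 on the minus strand. By the annotation all 36 were protein-coding genes, with a median of 13 zinc fingers in the protein translated from the coding sequence. ZNF208 held 36 fingers, ZNF729 held 34 and ZNF91 held 31, whereas ZNF738 held 5. The letters F, any residue, D and V in a row, which lie at the start of many KRAB domains, were found among the first 120 residues of 32 of the 36 proteins and not in those of ZNF714, ZNF257, ZNF676 and ZNF492. This search reads only the chosen transcript of each gene and does not say whether another isoform carries a KRAB domain.

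The promoters of most cluster genes shared the same sequence elements. RefSeq start-site sequences (GRCh38.p14, 250 bases before to 50 after the start) were given for 28 of the 36 genes and were not used for ZNF253, ZNF506, ZNF676, ZNF728, ZNF729, ZNF738, ZNF98 and ZNF99. The stretch from 135 to 21 bases before the start is shown for the pair of genes best known for silencing transposable elements and for ZNF43, for the gene with the highest level per kilobase (ZNF14), for ZNF492 from the most similar pair of proteins, and for the neighbours ZNF90 and ZNF486, which were added after their values were seen because one was near 0 and the other was not. The sequences, each 115 bases on the gene's own strand, lie at ZNF91 (chr19:23395492-23395606, minus strand), ZNF93 (chr19:19900811-19900925, plus strand), ZNF43 (chr19:21836203-21836317, minus strand), ZNF14 (chr19:19733133-19733247, minus strand), ZNF492 (chr19:22634189-22634303, plus strand), ZNF486 (chr19:20167079-20167193, plus strand) and ZNF90 (chr19:20077865-20077979, plus strand). Capitals mark a 10-base element with the letters TCCAATCAGG, a second with the letters CTGTCACTCA, and CCAAT wherever it stands outside them.
ZNF91: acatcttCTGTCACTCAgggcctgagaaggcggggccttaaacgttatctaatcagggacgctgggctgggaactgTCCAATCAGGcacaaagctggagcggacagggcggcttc
ZNF93: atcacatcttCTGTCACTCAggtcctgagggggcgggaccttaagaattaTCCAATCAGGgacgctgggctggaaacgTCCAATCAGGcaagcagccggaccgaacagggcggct
ZNF43: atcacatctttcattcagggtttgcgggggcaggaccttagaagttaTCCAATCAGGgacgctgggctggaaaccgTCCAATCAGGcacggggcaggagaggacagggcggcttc
ZNF14: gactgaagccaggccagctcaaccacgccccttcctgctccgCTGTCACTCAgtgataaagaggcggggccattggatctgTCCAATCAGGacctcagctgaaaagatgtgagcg
ZNF492: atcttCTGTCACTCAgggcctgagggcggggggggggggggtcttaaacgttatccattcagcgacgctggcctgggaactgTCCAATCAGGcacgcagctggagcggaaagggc
ZNF486: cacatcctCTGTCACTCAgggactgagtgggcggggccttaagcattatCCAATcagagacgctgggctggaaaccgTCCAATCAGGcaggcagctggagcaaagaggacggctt
ZNF90: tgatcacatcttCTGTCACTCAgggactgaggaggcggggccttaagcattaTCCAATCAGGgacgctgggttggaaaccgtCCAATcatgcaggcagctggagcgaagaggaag

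Read against each other, these stretches showed the same order of parts. The CTGTCACTCA element came first in ZNF91, ZNF93, ZNF14, ZNF492, ZNF486 and ZNF90, and 1 or more CCAAT boxes followed nearer the start. CCAAT is the core of the site bound by the trimeric factor NF-Y, and a match here describes the letters only. ZNF93 and ZNF43 each carried 2 copies of TCCAATCAGG, whereas ZNF91, ZNF14 and ZNF492 carried 1.

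TCCAATCAGG was taken as the 10-base word found in the most cluster genes. CTGTCACTCA, and then CTTTGTCTCT near the start, were the commonest left once words sharing a short stretch with an earlier choice were set aside. Ties went to the first word in the alphabet. Frequency within the cluster is therefore what chose all of them. Matches were sought on both strands. The words share no long stretch with one another because of that choice, except that TCCAATCAGG contains CCAAT. TCCAATCAGG was present in 26 of 28 cluster genes (92.9%), all on the gene's strand, and not in ZNF257 or ZNF493. It was found in 8.85% of 192 other zinc finger genes of chromosome 19, in 5.41% of 222 zinc finger genes on other chromosomes and in 0.428% of all 27305 genes with a sequence. CTGTCACTCA was present in 22 of 28 cluster genes (78.6%), in 5.73% and 3.60% of those groups of zinc finger genes and in 0.418% of all genes. CTTTGTCTCT was present in 19 of 28 cluster genes (67.9%), in 0 of the 192 other zinc finger genes of chromosome 19, in 2.70% of those elsewhere and in 0.341% of all genes. CCAAT itself was in all 28 cluster genes, although not at the second of the RefSeq starts of ZNF682. It was in 50.5% and 47.3% of those groups of zinc finger genes and in 39.7% of all genes.

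**Figure D1:**
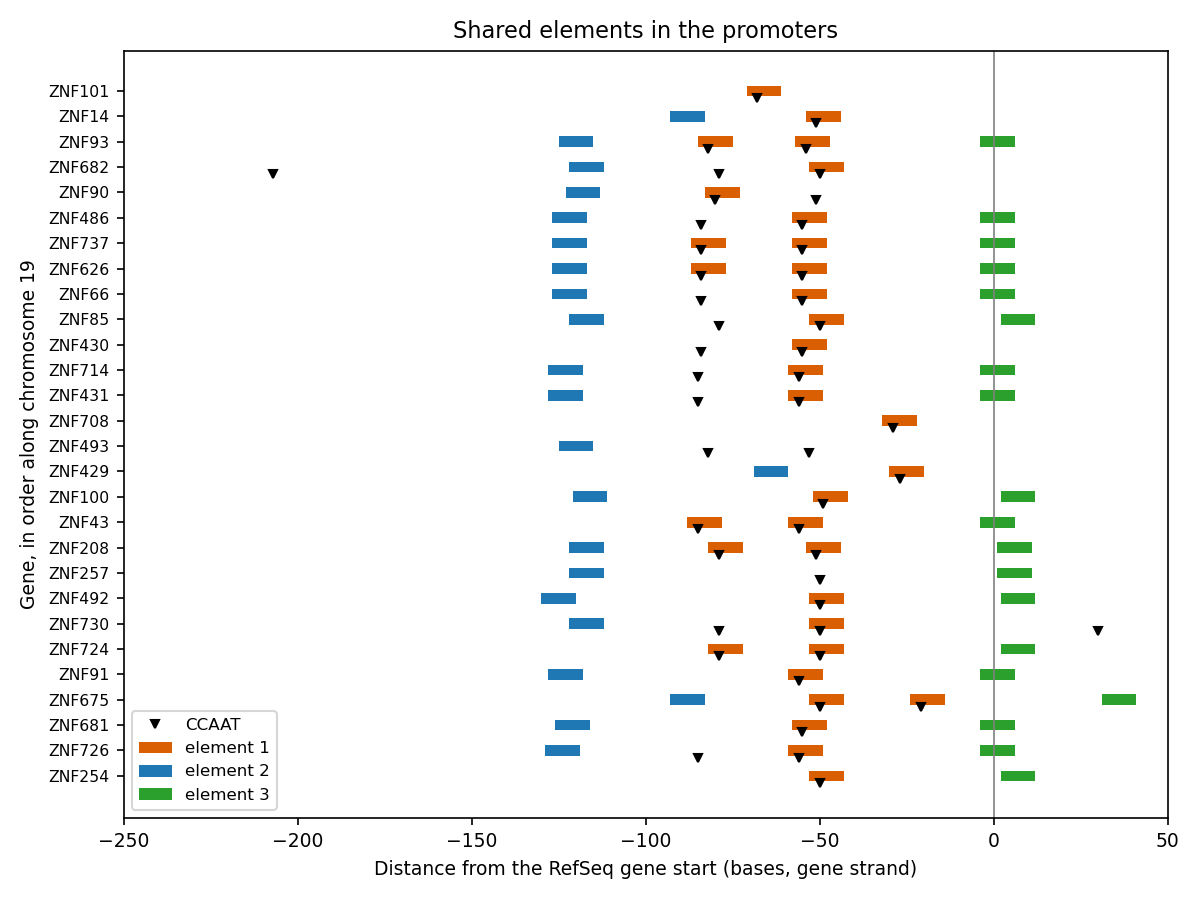
Position of the shared elements in the promoters of 28 cluster genes, plotted as distance in bases from the RefSeq start on the gene's strand, with bars for the 3 elements and triangles for CCAAT. Most rows show the second element near -125, the first near -58 and the third at the start itself.

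The spacing of the CCAAT boxes was nearly fixed. In 18 genes there were 2 or more CCAAT boxes upstream of the start on the gene's strand, and in 10 there was 1. All 18 distances between neighbouring boxes within 100 bases of the start were 28 or 29 bases. Over the 300 bases, pairs of cluster promoters were identical at a median of 76.1% of aligned positions (378 pairs), with ZNF714 and ZNF431, adjacent genes on the same strand, the most alike at 91.0% and ZNF14 and ZNF486 the least at 45.5%. ZNF14 and ZNF101, at the start of the cluster, were at most 52.5% and 54.9% identical to any other member. ZNF429 and ZNF708 resembled each other (74.8%) more than the rest, with medians of 54.6% and 56.3%. Their TCCAATCAGG stood at -30 and -32 from the RefSeq start, against a median first position of -58 in the cluster. The same 300 bases thus cover a shifted stretch in both genes. Identity after lining up the elements was not computed. Identity between promoters outside the cluster was not computed. The GC content of these promoters had a median of 56.0% against 58.7% over all promoters in the table, and they held a median of 10 CpG dinucleotides against 14.

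Most of the cluster was transcribed in BT-549 cells at low to moderate levels. Of the 33 genes in the table, 32 (97.0%) had a mean normalized count of at least 10 and 25 (75.8%) had at least 100, while none reached 1000. Among all genes listed, 68.5% had at least 10, 54.6% at least 100 and 27.9% at least 1000. The cluster's median was 240 mean normalized counts (quartiles 123 and 314). Its 33 genes together held 0.0304% of the summed normalized counts of all genes. The median gene of the cluster stood at the 52.4th percentile of all genes listed, and 19 of 33 were above the median of all genes, which was 187. That ranking includes genes not matched to a protein-coding annotation. Against the 15542 protein-coding genes matched, whose median was 452 mean normalized counts and 79.5 per kilobase, the cluster's medians of 240 and 30.9 were lower.

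The 4 genes with more than 500 mean normalized counts were ZNF91 at 604, ZNF714 at 577, ZNF93 at 572 and ZNF506 at 512. ZNF91 and ZNF93, the repressors of SVA and LINE-1 elements named above, were thus both in the upper group. ZNF486 (413) and ZNF254 (403) were the nearest below that level. Together the 5 genes with the most reads held 33.2% of the cluster's total, so no single gene dominated it.

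A broad middle group lay between 100 and 400 mean normalized counts. Its upper end held ZNF626 at 380, ZNF101 at 315, ZNF431 and ZNF14 at 314 each, ZNF43 at 303 and ZNF675 at 301. ZNF429 and ZNF738 each had 280, ZNF724 had 264, ZNF430 had 250, ZNF85 had 240, ZNF253 had 225 and ZNF100 had 202. These 13 genes came from both strands and from both ends of the cluster. At its lower end were ZNF737 at 173, ZNF681 at 164, ZNF257 at 156, ZNF726 at 148, ZNF708 at 125 and ZNF492 at 123. Since the spread between cultures is unknown, neighbours in this order are not claimed to differ.

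Below 100 mean normalized counts there were 8 genes. ZNF493 (99.1) and ZNF682 (86.3) were just under that level, with ZNF730 at 75.4, ZNF98 at 65.8 and ZNF66 at 62.9. ZNF99 at 21.8 and ZNF729 at 20.9 were lower again, although both encode long proteins with 21 and 34 fingers. ZNF90 was near 0, at 0.575 mean normalized counts, which is a summed normalized count of 3.45 over the 6 libraries, close to the floor of 3 counts (0.5 as a mean) that counting error allows for a gene with none. No other gene of the cluster lay between ZNF90 and ZNF729, so the choice of 10 as a threshold did not decide which genes were placed below it.

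Read counts grow with transcript length, and levels of different genes were therefore compared per kilobase of exon. On this scale the cluster's median was 30.9 mean normalized counts per kilobase (quartiles 22.2 and 53.7). ZNF14 was highest at 106 per kilobase, with only 2963 bases of annotated exon, followed by ZNF93 at 102 and ZNF486 at 96.6. ZNF91, with 10308 bases of exon, stood at 58.6 per kilobase, close to ZNF714 at 58.7, and ZNF506 stood at 53.7. ZNF99, ZNF729 and ZNF90 remained the lowest, at 2.77, 5.43 and 0.0945 per kilobase.

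The order at the top depended on which length was used. Per kilobase of coding sequence alone, ZNF506 was highest at 384, then ZNF714 at 347 and ZNF93 at 307, and ZNF14 was at 163. ZNF93 was among the 3 highest by total exon length, by coding length and by the longest transcript, where it led at 207 per kilobase. ZNF90 was lowest by each of these lengths. The deposited values do not show which transcripts were present.

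**Figure D2:**
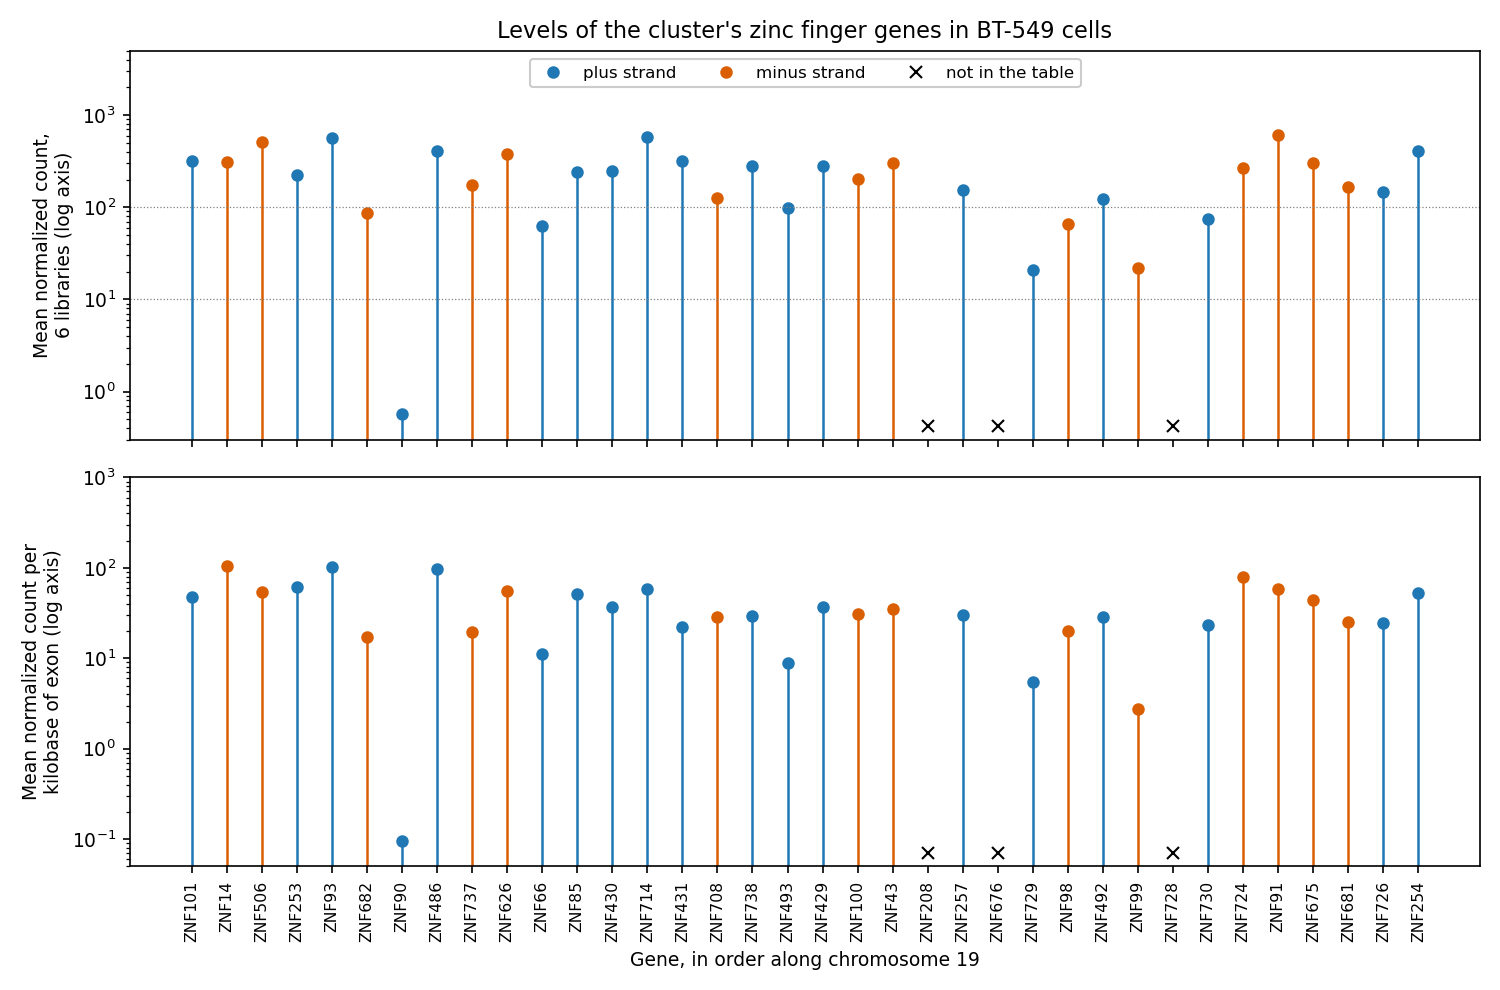
Level of each cluster gene in its order along chromosome 19, as mean normalized count over 6 libraries (upper panel) and per kilobase of exon (lower panel), both on log axes, coloured by strand, with dotted lines at 10 and 100 and crosses for the 3 genes with no entry. Neighbours often differ in level, as with ZNF90 at 0.575 beside ZNF486 at 413. There are also runs, and 4 of the 5 genes from ZNF729 to ZNF730 that have a value lie below 100.

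Level did not follow position in any simple way. Adjacent genes in the table differed by a median of 1.13 on the log2 scale of level per kilobase, more than 2-fold. The first 18 genes of the cluster had a median of 42.3 per kilobase, and the 15 with a value among the other 18 had a median of 30.2. Genes on the plus strand had a median of 30.2 per kilobase (19 genes) and those on the minus strand 33.0 (14 genes). The stretch from ZNF208 to ZNF730 held the 3 genes with no entry and also ZNF729, ZNF98, ZNF99 and ZNF730, while ZNF257 and ZNF492 within it were above 100 mean normalized counts. Spearman's rho across the 33 genes was -0.23 between level per kilobase and order along the chromosome, a weak relation given as a description.

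The sharpest local contrast was between ZNF90 and its downstream neighbour ZNF486. Both are on the plus strand, at chr19:20077994-20127076 and chr19:20167214-20200488, and their levels were 0.0945 and 96.6 mean normalized counts per kilobase. Their promoters were identical at 86.9% of aligned positions, and as the sequences above show, ZNF90 carried the CTGTCACTCA element, 1 copy of TCCAATCAGG and 2 CCAAT boxes. ZNF486 carried the same number of each, with its TCCAATCAGG at the box nearer the start and that of ZNF90 at the farther one. CTTTGTCTCT was present in ZNF486 and not in ZNF90. The 9 genes without it had a median of 28.8 per kilobase (0.0945 to 106), and the 18 genes with it that had a level had a median of 39.7 (11.1 to 102), so the ranges overlapped. Across the cluster, genes with 2 or more CCAAT boxes had a median of 35.1 per kilobase (0.0945 to 102, 17 genes) and those with 1 had a median of 33.9 (25.2 to 106, 10 genes), so the ranges overlapped.

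Set beside other zinc finger genes, the cluster had a lower median level. The median level per kilobase was 57.3 for 216 other zinc finger genes of chromosome 19 and 67.1 for 267 on other chromosomes, against 30.9 in the cluster. In mean normalized counts the medians were 332 and 374, against 240 in the cluster. The joined exons of the cluster genes were longer, with a median of 6497 bases against 5467 and 5575. Other measures of length were not applied to the other groups. The level per kilobase of 26 of the 33 cluster genes was below the first of these medians, and that of 29 was below the second. None of the 33 reached 1000 mean normalized counts, whereas 19 of 216 (8.80%) and 47 of 267 (17.6%) did in the other groups. The cluster is small, and this difference was not tested. The share above 10 mean normalized counts was 97.0% in the cluster, 96.8% in the rest of chromosome 19 and 93.3% elsewhere. Those shares cover only genes with an entry in the table. Over all 36 cluster genes the share above 10 was 88.9%, with those lacking an entry counted as below 10. Genes without an entry were not counted in the other groups, so 88.9% has no like value there. KRAB letters were found in 30 of the 33 cluster genes (90.9%), in 73.1% of the others on chromosome 19 and in 33.7% of those elsewhere, so the last group holds many proteins of another kind. ZNF723, a zinc finger gene inside the interval that was not among the 36, had 0.172 mean normalized counts.

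**Figure D3:**
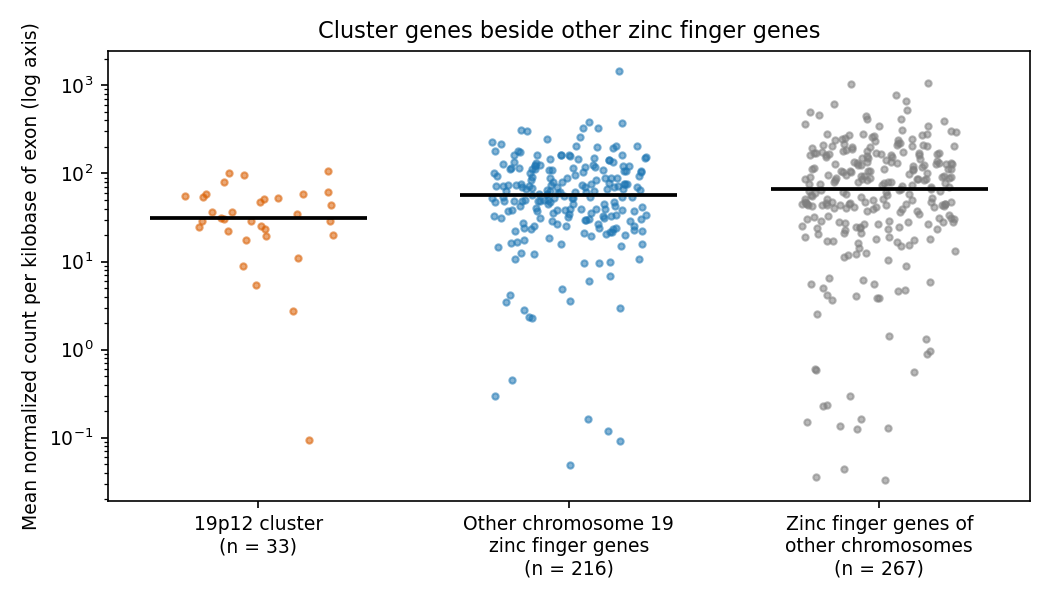
Level per kilobase of exon on a log axis for the 33 cluster genes, 216 other zinc finger genes of chromosome 19 and 267 zinc finger genes of other chromosomes, with 1 point per gene and a bar at each median (30.9, 57.3 and 67.1). No gene of the small cluster group lies in the upper range of the other groups, and ZNF90 is its single point near 0.

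Zinc finger number bore little relation to level. Spearman's rho across 33 genes was -0.17 between level per kilobase and finger number. Both ends of the finger range had genes at different levels, with ZNF91 (31 fingers) at 58.6 per kilobase and ZNF729 (34 fingers) at 5.43. The genes with 8 and 5 fingers, ZNF506 and ZNF738, stood at 53.7 and 29.1.

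Sequence shared between genes limits some of these values. For each gene the share of 75-base words of its chosen transcript that also occur in transcripts of another gene was counted. The median over the 36 genes was 1.05%, and 28 of the 33 genes with a value were under 5%. ZNF724 was the exception with the largest share, 51.9%, mostly in ENSG00000283201, an unnamed protein-coding annotation that overlaps it on the same strand. ZNF738 shared 25.4% of its words with other genes, mainly with ENSG00000213976, a pseudogene that overlaps its 3-prime part on the same strand.

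ZNF98 and ZNF492 were a different case, since they share words with each other. They lie on opposite strands at chr19:22391019-22532485 and chr19:22634324-22667671, and 45.1% of the words of ZNF98 and 24.8% of those of ZNF492 were found in another gene, chiefly the partner. Their proteins were identical at 90.9% of positions. The levels of ZNF98 (65.8 mean normalized counts) and ZNF492 (123) are therefore uncertain, as are those of ZNF724 and ZNF738, because how the authors' counting treated reads that fit more than one gene is not given in the sources used here. ZNF66 followed at 8.26%. ZNF90 shared 0.817% of its words, mostly with ZNF486, and ZNF729 shared 2.31%, mostly with ZNF99.

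**Figure D4:**
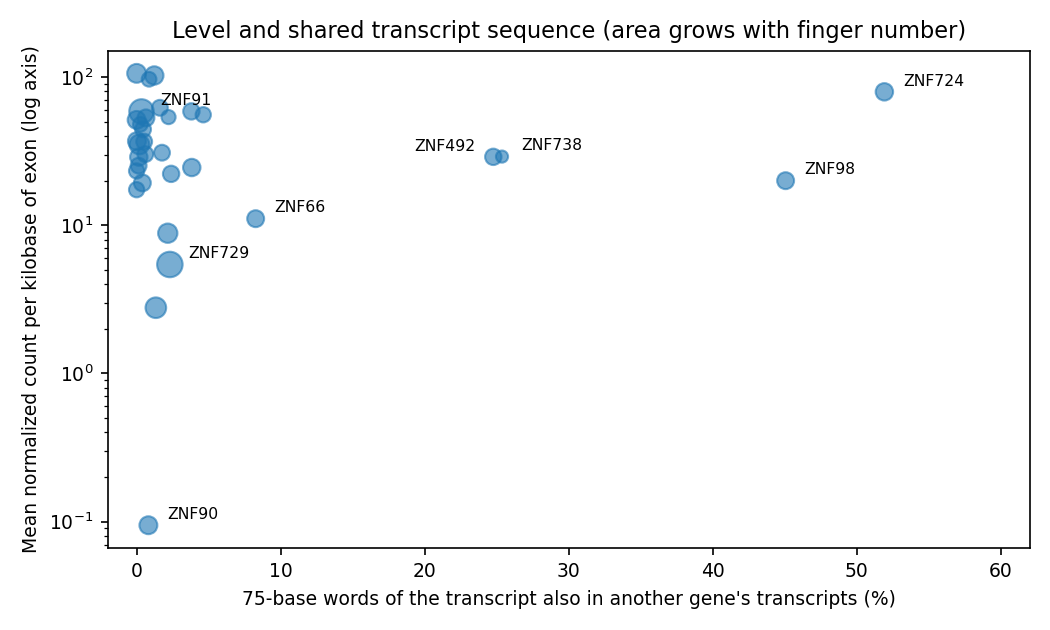
Share of each transcript's 75-base words that also occur in another gene (x axis, %) against the gene's level per kilobase of exon (y axis, log), with point area growing with finger number. ZNF724, ZNF98, ZNF738 and ZNF492 stand apart at 24.8% or more, while ZNF90 and ZNF729 are low in level at small shares for this word length.

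The 630 pairs of proteins in the cluster had a median identity of 55.7% over all aligned positions, gaps included. After ZNF98 and ZNF492, the most similar pairs on this measure were ZNF430 with ZNF100 at 78.6% and ZNF430 with ZNF431 at 78.3%. Next came ZNF737 with ZNF66 at 76.1% and ZNF726 with ZNF254 at 75.7%. Levels within these named pairs were compared per kilobase without a measure of spread. ZNF430, ZNF100 and ZNF431 were at 36.7, 30.9 and 22.2 mean normalized counts per kilobase, ZNF737 and ZNF66 at 19.3 and 11.1, and ZNF726 and ZNF254 at 24.5 and 53.0. The lowest identities with gaps counted involved ZNF101, at the edge of the cluster, ZNF738 with its 5 fingers, and the longest proteins, ZNF208, ZNF729 and ZNF91. ZNF14, beside ZNF101, was also unlike the rest, with its highest identity 45.8%, to ZNF93. Over aligned residues without gaps, ZNF738 with ZNF91 was 73.9% identical, against 21.5% with gaps. By that count ZNF101 with ZNF91 was at 47.9% and ZNF14 with ZNF93 at 48.5%, against 17.5% and 45.8%. ZNF208 with ZNF676 (86.6%) and ZNF729 with ZNF99 (84.7%) then stood above ZNF430 with ZNF100 (82.7%).

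**Figure D5:**
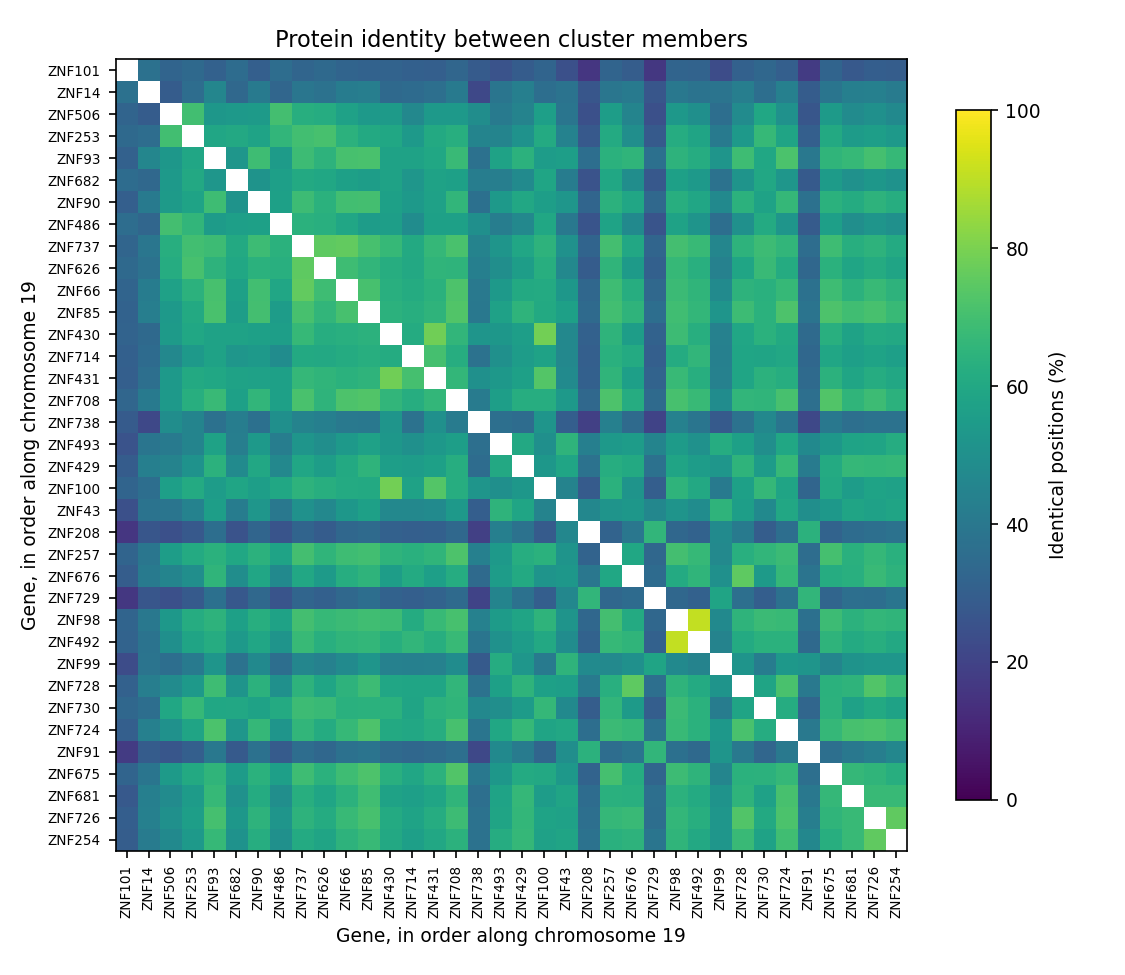
Identity between the proteins of the 36 cluster genes, in order along chromosome 19 on both axes, coloured from 0 to 100%. The brightest cell pairs ZNF98 with ZNF492 at 90.9%. With gaps counted, low values run along ZNF101, ZNF14, ZNF738 and the long proteins ZNF208, ZNF729 and ZNF91.

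The partners through which KRAB zinc finger proteins act were all expressed. Each of 14 listed partner genes had at least 1000 mean normalized counts, a level that 27.9% of all genes listed reached. They ranged from 1230 for PPHLN1, a subunit of the HUSH silencing complex, to 7686 for CBX5, which encodes heterochromatin protein 1 alpha. TRIM28, the corepressor bound by the KRAB domain, had 5945 and SETDB1 had 1339. Per kilobase of exon the median of these partners was 454, against 30.9 for the cluster genes. Of the line's markers, the mesenchymal genes VIM, FN1, ZEB1 and CDH2 had 47782, 30461, 7333 and 4093 mean normalized counts. The epithelial genes KRT18, CDH1, KRT8 and EPCAM had 435, 59.6, 57.3 and 1.30. The hormone receptor genes ESR1 and PGR had 0.790 and 0.801, whereas ERBB2 had 1221 and GATA3 had 362. Markers of leukocytes, endothelium and hepatocytes ranged from 0.172 (CDH5) to 44.7 (PTPRC) over the 4 that were listed, and CD3E was not listed. WDR5 itself had 1143 as a mean over both groups of cultures, which does not show how far DOX lowered it.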

How the data were processed

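The authors sequenced stranded poly(A) libraries from 3 vehicle and 3 DOX cultures, aligned reads to GRCh38 with STAR and normalized gene counts with DESeq2, per the labels and the study's methods. The gene counter, its handling of shared reads and tool versions are not given in the sources used here. The methods do name a numbered release of GRCh38. Whether the gene models the authors counted match GENCODE release 44, used here for lengths and shared sequence, is not known. The deposited table holds a signal value per gene, the authors' mean normalized count over the 6 libraries, and 5 columns of their DOX against vehicle comparison (log2 fold change, its standard error, statistic, p-value and adjusted p-value), which were not used. No library's own values were used, so depth, spread and library outliers are unknown and no test was made.

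Members and gene lists were chosen with earlier results of these data known. Of 19792 symbols, 17729 matched GENCODE release 44 directly and 582 through older symbols; 1481 did not match. Exon lengths, coding sequences and transcripts came from GENCODE, promoters from RefSeq (GRCh38.p14, 29 sequences for 28 members, each identical to the genome). Level per kilobase is the mean normalized count divided by the joined length of all exons. Zinc fingers were counted as C, 2 residues, C, 12 residues, H, 3 to 5 residues, H. Shared sequence was counted as words of 75 bases of the canonical transcript. Proteins and promoters were aligned globally (Biopython 1.88; BLOSUM62, gap costs 11 and 1, for proteins). Other zinc finger genes are protein-coding genes outside the list named ZNF, ZFP, ZSCAN or ZKSCAN with at least 1 finger. The counting functions were checked on simulated data. Values were to be given for members of at least 100 mean normalized counts, the 5 lowest, those beside the thresholds of 10 and 100 and the most identical pairs; the remaining members are given as well. Python 3.11.15, pandas 2.3.3, scipy 1.17.1 and matplotlib 3.10.9 were used.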

Additional observations from a re-analysis of the deposited data

How the results depend on the processing

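The counts of cluster genes with at least 10 or 100 mean normalized counts stayed within 1.5 times under the other thresholds tried, at 32 of 33 for thresholds of 5 and 20 and at 30 and 19 for thresholds of 50 and 200. The median level was 245 mean normalized counts without ZNF90. The median percentile was 30.5 among genes of at least 10 mean normalized counts and 43.2 among those of at least 1, against 52.4 among all genes. The median per kilobase was 54.3 with the longest transcript, 230 with the median transcript length and 134 with the coding length, against 30.9 with all exons, because those lengths are shorter. The ratio of the cluster's median to that of other zinc finger genes, on mean normalized counts, was 0.668, and 0.722 against those of chromosome 19 only. Spearman's rho of mean normalized count with finger number was -0.20, and it was -0.17 both without ZNF90 and per kilobase. With words of 50 and 100 bases, lengths chosen after seeing the data, the median shared share was 6.67% and 0.103%.

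No paired analysis was possible because only the mean over the 6 libraries was used. For the same reason the edgeR and DESeq2 fits, the fit without a filter and those leaving out each replicate were not run.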
